A study of Danio rerio with 8 samples.

Results

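Liver from zebrafish kept in Hun River water of site H4 was set against liver from fish kept in clean water, as 1 pair of arrays out of the 8 in the series. The members of the comparison were the array probes that lay well above background on both arrays and were not marked as outliers on either, which left 25431 of 43603 probes. The background mark is set spot by spot. The lowest log2 signal that passed it was 6.66 in control and 6.6 at H4, and the highest that did not was 7.17 and 6.91. These probes named 9810 genes, and the other 8253 probes had no gene symbol. Each side was a single pool of liver, so a difference had no replicate behind it, and none of the differences below was tested.

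The study exposed adult zebrafish to surface water from 5 sites on the Hun River (H1 to H5) and 1 each on the tributaries Dongzhou (D) and Xi (X), and read liver RNA on 1-colour Agilent arrays. Site H4 lay below the city of Shenyang and site H3 above it. The fish were wild-type males aged 3 months, bought from a local distributor, and the water was not renewed during the 96 h of exposure. The control fish were held in tap water that had been filtered over carbon and aerated. Livers of the 5 fish of a tank were pooled, so that each array carried 5 livers of 1 tank, and a tank cannot be told apart from its water. The control array lay on slide 1 with H1, H2 and D, and the H4 array on slide 2 with H3, H5 and X, so slide and exposure cannot be told apart in the H4 against control difference. For this reason many of the lists described below were also set against the median of H3, H5 and X. That value rests on probes above background at H4 and on most of these 3 arrays, so its members can differ from those measured against control, and the value over the same members is given where it differs much. The hour of dissection is not given in the sources used here.

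The liver makes most blood proteins, burns and stores sugar and fat, turns cholesterol into bile acids, breaks down amino acids and clears foreign chemicals. Many of these tasks follow a daily clock, in which *bmal* and *clock* proteins switch on *per*, *cry* and *nr1d* genes whose products then hold them back. Secreted proteins fold in the endoplasmic reticulum, where a shortfall of folding capacity switches on chaperone genes through the unfolded protein response. The adult liver divides little. Meiosis and the building of sperm tails are tasks of the testis, although many of the tail genes also serve motile cilia elsewhere.

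Marker genes of hepatocytes were abundant in both pools and nearly equal. *fabp10a*, the liver fatty acid binding protein, had a log2 signal of 17.32 in control and 17.26 at H4, and *tfa*, transferrin, had 16.59 on both arrays. None of the 19 measured hepatocyte markers differed by 2 fold, and their median difference was -0.07. *hnf4a*, a master regulator of hepatocyte genes, differed most among them, from 9.35 to 8.66.

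All levels are log2 signal after the 8 arrays were brought to the same distribution, and a difference is H4 minus control, so that 1 unit is 2 fold. Levels of different genes cannot be compared on this scale. Of the spots, 62.9% lay above background on the control array and 63.7% on the H4 array (56.5% to 70.8% over the series), and no spot was saturated. Spots that repeat a probe differed by an SD of 0.11 on the control array and 0.12 on the H4 array, and the median SD among different probes of 1 gene was 0.19 for the difference. These figures cover the array only, not fish or tanks. A gene was counted as higher or lower where the mean over its probes differed by at least 2 fold, and rose or fell below is used of such genes only.

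At H4, 459 genes were higher and 336 were lower, which is 4.68% and 3.43% of the genes measured on both arrays. Among probes, 1217 were higher (4.79%) and 1216 lower (4.78%), around a median difference of -0.03. The rises reached further than the falls. At least 8 fold was reached by 124 probes upward and 19 downward, and at least 4 fold by 327 and 117. Most of the higher genes were also at their peak in the series, since 363 of the 459 had their highest level of all 8 arrays at H4 (79.1%), against 15.6% of all measured genes. Of the 336 lower genes 175 had their lowest level at H4 (52.1%), against 19.2% of all measured genes. These genes were picked by the same H4 level that sets the rank, so shares above those of all genes were built in. The control array, from which the counts start, is itself 1 of the 8, which also favours such ranks.

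**Figure D1:**
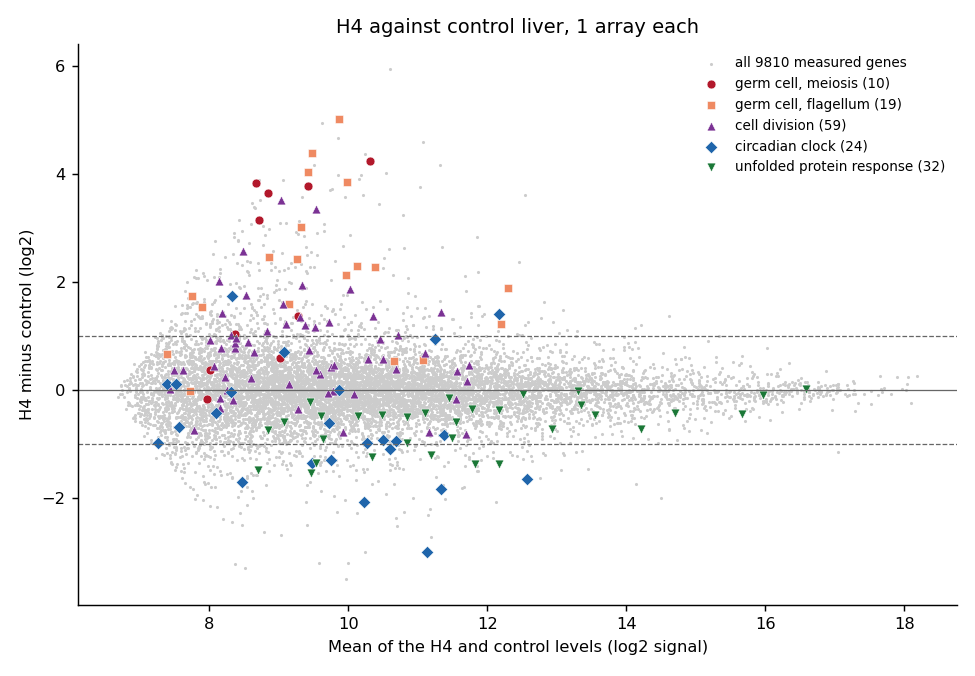
Difference between site H4 and control (log2, H4 minus control) against the mean level of the pair (log2 normalized signal) for each gene measured on both arrays. Grey points are all genes and coloured marks are the members of 5 lists described in the text. Points past the lines at 1 and -1 are the 459 higher and 336 lower genes, and the upper points reach nearly 6 while the lower ones end near -3.5.

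Genes of the testis led the rises. *insl3*, the insulin-like hormone of Leydig cells, went from 7.63 in control to 13.56 at H4, a difference of 5.93 or 61.0 fold. It was also high at H3 (12.41) and H5 (12.9), while the other arrays went down to 5.81. *sycp1*, a building block of the synaptonemal complex that joins chromosomes in meiosis, went from 8.19 to 12.43, or 18.9 fold, and its 4 probes gave differences between 3.81 and 4.86. The highest of the other arrays for *sycp1* was H3, at 11.17.

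Another 7 of the 10 largest rises belong to cilia and flagella or have no role that is known here. *cimap1b*, a protein of the sperm tail's outer fibres, rose from 7.35 to 12.37 (32.3 fold), *cfap77* from 7.16 to 12.09 (30.6 fold) and *hoatz* from 7.52 to 12.19 (25.4 fold). *ropn1l*, a sperm tail protein, rose 21.0 fold, *dnali1*, an axonemal dynein chain, 18.0 fold and *spaca9*, a protein named for the sperm head, 17.9 fold. *si:ch211-121a2.2* rose 20.6 fold. For each of these 7 genes H3 was the next highest array and H5 came after it. The one remaining gene of the 10, *irg1l*, the fish relative of the macrophage enzyme that makes itaconate, followed another pattern, at 8.79 in control, 8.8 at H3, 10.38 at H5 and 13.37 at H4 (23.9 fold).

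A further 611 genes were above background at H4 and not in control, at a level that left a lower bound of the fold. The bound is the H4 level over the dimmest control signal that counts as above background, or over the gene's own control signal where that was higher. Of these genes, 247 were at least 2 fold higher (40.4%). *gsdf*, a growth factor of the Sertoli cells that surround germ cells, was at least 123 fold higher, with 13.69 at H4, 11.89 at H5, 10.87 at H3 and levels from 6.67 to 9.15 elsewhere, in part below background. *star*, which carries cholesterol into mitochondria for steroid synthesis, was at least 16.1 fold higher. Among the 10 largest bounds stood also the cilium genes *morn5* (at least 22.5 fold), *cfap299* (19.8), *daw1* (17.6) and *dnaaf4* (17.1), and 4 genes for which no role is given here, *si:ch211-155m12.5* (43.7), *zgc:172182* (23.5), *si:dkey-65l23.2* (19.7) and *leng9* (17.4).

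The lists of germ cell genes show how far this went. Of 18 genes of spermatogonia and meiosis with a probe, 10 were measured on both arrays. Of these 7 were higher (70.0%, beside 4.68% of all genes) and none lower, with a median of 2.25. Another 6 genes were bright at H4 only, each at least 2 fold higher, beside 40.4% of all genes bright at H4 only. Genes picked in this way can come out only as higher. The 7 include *dmc1*, the recombinase of meiosis (6.76 to 10.58, 14.1 fold), *piwil1* (7.03 to 10.67, 12.4 fold) and *gtsf1* (7.53 to 11.32, 13.8 fold), which silence transposons through piRNAs, and *tdrd1* and *tdrd9* of the same pathway (8.8 and 2.56 fold). Of the genes bright at H4 only, *hormad1* of the meiotic chromosome axis was at least 15.5 fold higher and *sycp3*, of the same axis, at least 14.0 fold, the germ cell helicase *ddx4* at least 5.55 fold, and *spo11*, which cuts DNA to start meiotic exchange, at least 4.89 fold. Among the 7, *dazl*, named here after its values were seen, rests on probes that disagree, at -0.82 and 2.89.

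Of 32 genes of spermatids and flagella with a probe, 19 were measured on both arrays. Of these 15 were higher (78.9%, beside 4.68% of all genes) and none lower (median 2.13). The highest level of the 8 arrays was at H4 for 18 of them, beside 15.6% of all genes. Another 11 were bright at H4 only, 9 of them at least 2 fold higher, beside 40.4% of all genes bright at H4 only. Among the 9 were *nme5* (at least 14.5 fold) and the sperm kinase *tssk6* (at least 13.7 fold). *cfap52* rose from 7.4 to 11.44 (16.5 fold), *cfap263* from 8.06 to 11.91 (14.4 fold) and *tekt1*, a tektin of the tail's microtubules, from 7.81 to 10.82 (8.05 fold). The probes of some members disagreed. Those of *cfap53* gave 0.90 and 4.01, and those of *ccdc40* -0.48 and 1.58. In a bulk sample, more cells of a type and more RNA per cell cannot be told apart.

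**Figure D2:**
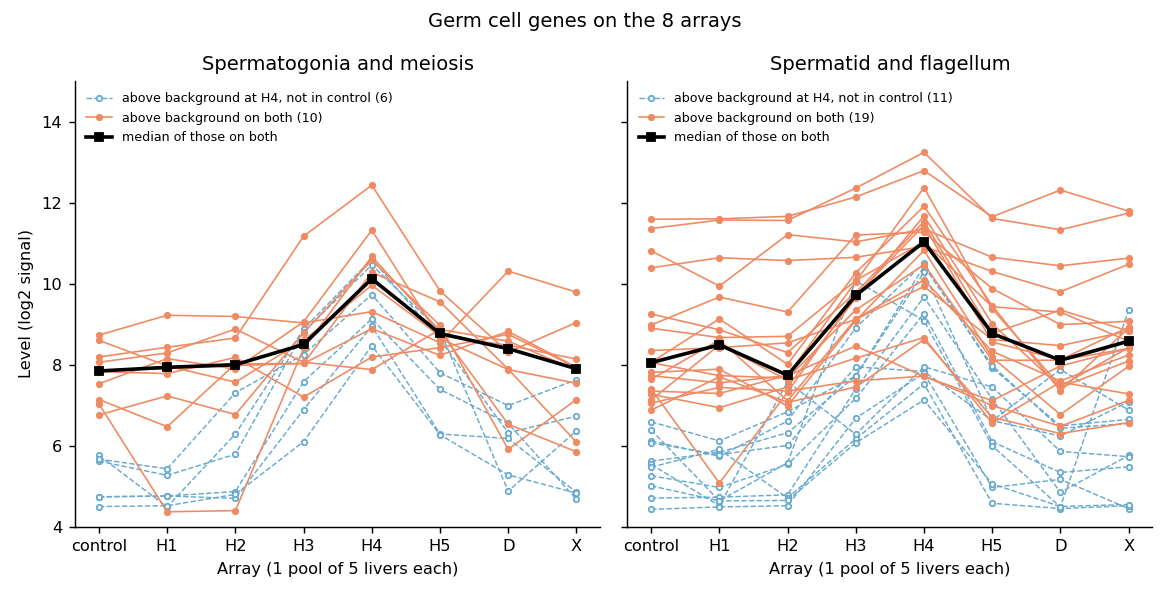
Level (log2 normalized signal) of each germ cell gene on the 8 arrays, for the list of spermatogonia and meiosis and the list of spermatids and flagella. Orange lines are the 10 and 19 genes above background on both arrays, with their median in black, and dashed blue lines the 6 and 11 genes above background at H4 and not in control. H4 is the high point of both medians, with H3 or H5 next.

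Against control, the median of the meiosis list was 0.59 at H3, 0.96 at H5 and between 0.04 and 0.43 at H1, H2, D and X. The tail list had 1.03 at H3 and between 0.06 and 0.25 at the other sites. Summed over the list, the linear signal of the meiosis genes was 2399 in control, 15100 at H4 and between 2507 and 5459 on the other arrays. Against the median of H3, H5 and X, the lists stood at 1.84 and 1.89, and at 1.58 and 1.6 over the members measured against control. H4 thus stood above both references.

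Genes of the somatic testis were mixed. Of 17 measured genes of Sertoli and Leydig cells 3 were higher (17.6%, beside 4.68% of all genes) and 2 lower (11.8%, beside 3.43%). Their median was -0.12. Another 3 were bright at H4 only, namely *gsdf* and *star*, given above, and *fdx1b*, which passes electrons to steroid enzymes (at least 6.97 fold). All 3 were at least 2 fold higher, beside 40.4% of all genes bright at H4 only. *fdx1b* is named here after its values were seen. The higher ones were *insl3*, *cyp11c1*, which makes 11-oxygenated androgens and cortisol (7.97 to 10.18, 4.62 fold), and *aldh1a2*, which makes retinoic acid (2.92 fold, to 12.65). The lower ones were *sox9a* (9.47 to 7.9) and *igf3*, an insulin-like growth factor of the fish gonad (8.95 to 7.38). *nr5a1b*, a nuclear receptor that governs steroid enzymes, was at 14.3 and 14.2.

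Genes of cell division and DNA replication stood higher at H4. Of 59 measured genes 19 rose and none fell (32.2%, beside 4.68% of all genes), with a median of 0.57. The highest level of the 8 arrays was at H4 for 37 of the 59, beside 15.6% of all genes. *esco2*, which ties sister chromatids together, went from 7.28 to 10.79 (11.4 fold), *pttg1*, securin, from 7.86 to 11.21 (10.2 fold) and *birc5a*, survivin, from 7.2 to 9.77 (5.94 fold). *cdc6*, which loads the replication helicase, went from 7.13 to 9.15 (4.04 fold), *cdk2* from 8.37 to 10.31 (3.84 fold) and the spindle checkpoint gene *mad2l1* from 9.1 to 10.96 (3.63 fold). At each of these 6 genes H4 was the highest array. *cdc7*, the kinase that fires replication origins, was bright at H4 only and at least 3.7 fold higher. The 3 probes of *cdc20*, the activator of the anaphase ubiquitin ligase, gave -0.87 to 1.79 and a mean of 0.69. The most abundant members, *chek2*, *dhfr* and *rfc3*, differed by -0.82, -0.17 and 0.16.

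The list's median was below 0.03 or equal to it at all other sites, with -0.58 at H1, -0.11 at H2, -0.28 at H3, -0.11 at H5, 0.03 at D and -0.40 at X. Against H3, H5 and X it was 1.00. Germ cells divide, and the 2 germ cell lists had their highest medians on the same array. At H3, where the tail list was next highest, the cell division list was below control. The part of germ cell RNA in the rise of the cell division genes was not tested.

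Clock genes had the lowest median of the 49 lists against control. Of 24 measured genes 8 fell (33.3%, beside 3.43% of all genes) and 2 rose (8.33%, beside 4.68%), with a median of -0.89. The lowest level of the 8 arrays was at H4 for 10 of the 24, beside 19.2% of all genes. *per1b*, a repressor of the clock, went from 12.63 to 9.63 (8.0 fold lower), and only H3, at 8.91, was below H4. *nr1d1*, which represses *bmal* genes, went from 11.26 to 9.18 (4.23 fold lower), while the other 7 arrays ran from 9.33 to 11.51. The clock output factor *dbpa* went from 9.32 to 7.61 (3.28 fold lower). H4 was the lowest array for the last 2 genes.

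*nfil3-6*, an output factor that opposes *dbpa*, was lower by 1.83 (12.25 to 10.42), and its 5 probes gave -2.18 to -1.53. *cry2* went from 13.4 to 11.75. *cry1b*, *rorab* and *tefa*, named here as the remaining members that fell, gave -1.35, -1.31 and -1.09. *cry3a* (7.46 to 9.18) and *nfil3-5* (11.48 to 12.87) rose, and neither was at its highest at H4. The measured *bmal* and *clock* genes did not fall. *bmal1a*, named after its values were seen, had 10.77 in control and 11.71 at H4, and *clocka* and *clockb* each differed by 0.10.

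The clock list's median lay between -0.16 and 0.08 against control at the other 6 sites. Against the median of H3, H5 and X it was -0.63. H3 had its own lows in *per1b* and in *cry2* (11.6), and highs in *nfil3-6* (13.47) and *nfil3-5* (13.92), so these genes also varied among arrays of 1 slide. The part of the hour of dissection in these levels was not tested.

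**Figure D3:**
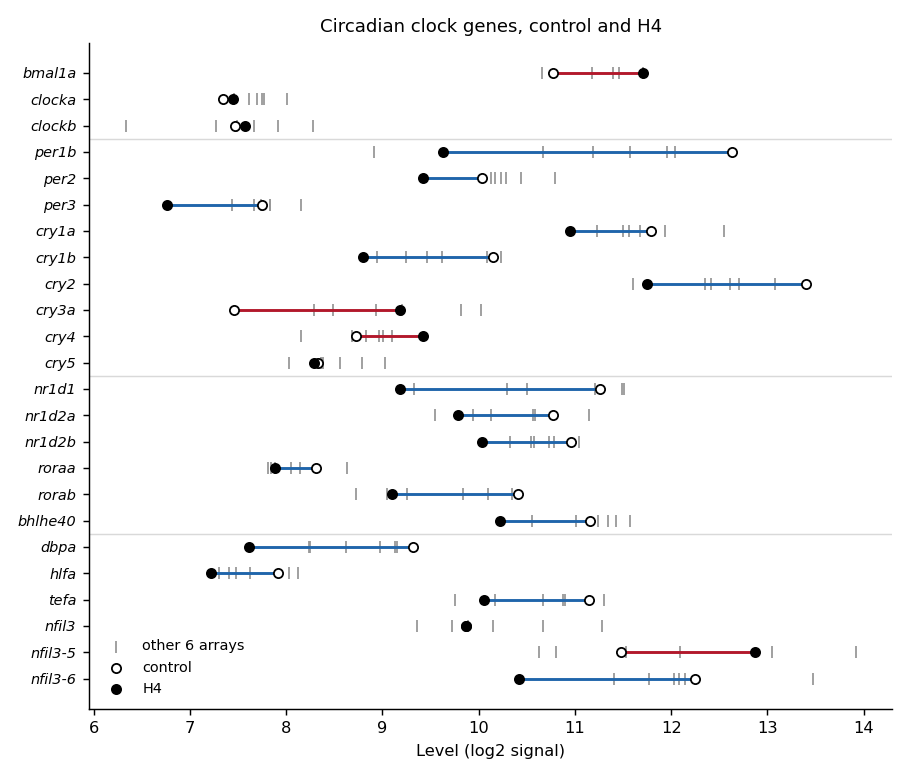
Level (log2 normalized signal) of the 24 measured clock genes in control (open) and at H4 (filled), grouped by role, with the other 6 arrays as grey ticks. Blue lines mark genes lower at H4 and red lines genes higher. Most repressors and output factors lie to the left of control at H4 and reach a difference of -3.00 at *per1b*, while *bmal1a* and the *clock* genes do not.

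Of 32 measured genes of the unfolded protein response 7 fell and none rose (21.9% lower, beside 3.43% of all genes), with a median of -0.50. Their lowest level of the 8 arrays was at H4 for 11 of them, beside 19.2% of all genes. *hspa5*, the main chaperone of the endoplasmic reticulum, went from 12.51 to 11.14 (2.59 fold lower), with 6 probes from -1.91 to -0.93. *atf6*, a sensor of the pathway, went from 10.23 to 8.69, *pdia4*, which forms disulphide bonds, from 12.85 to 11.48 and *hyou1*, another chaperone, from 10.97 to 9.72. *creld2* and *dnajb9b* differed by -1.49 and -1.36. Parts of the translocation channel were level, with 0.02 for *sec61g* and -0.10 for *sec61b*.

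At the other sites the median ran from -0.34 at H2 to 0.14 at H3, and against H3, H5 and X the H4 median was -0.71. Genes of the related integrated stress response were mixed. Of 21 measured genes 1 rose (4.76%, beside 4.68% of all genes) and 2 fell (9.52%, beside 3.43%). These were *phgdh*, the first enzyme of serine synthesis, at 7.31 and 9.28, *chac1*, which degrades glutathione, at 13.57 and 11.94 and *slc7a3a* at 10.29 and 8.51. Its mediator *atf4a* differed by 0.17.

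The list of heat shock proteins, other chaperones and their regulators had 4 falls and no rise among 36 measured genes, with a median of -0.17. Of all genes 3.43% were lower and 4.68% higher. The lowest level of the 8 arrays was at H4 for 10 of the 36, beside 19.2% of all genes. Against H3, H5 and X the list's median was -0.31 over the same members. *hsp90aa1.1* went from 11.21 to 9.47 (3.34 fold lower), the lowest of the 8 arrays, and *hspa13*, *hspb11* and the heat shock factor *hsf2* differed by -1.23, -1.25 and -1.12. *hsp90aa1.2*, a near copy of the first, had 10.18 in control and 10.83 at H4, and its 4 probes ran from -0.35 to 1.36, so its sign depended on the probe. The 11 probes of *hspa8* gave -0.48 to -0.18.

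The largest fall among bile acid genes was that of *cyp7a1*. The transcript of this rate-limiting enzyme had 12.28 in control and 10.08 at H4, a difference of -2.20 or 4.61 fold. H4 was the lowest of the 8 arrays, with H1 close by at 10.19 and the others at 10.93 or above. *cyp8b1.2*, which sets the type of bile acid made, went from 10.12 to 9.07, and its copy *cyp8b1.1* from 12.58 to 11.59, just short of 2 fold. Over the 13 measured genes 2 fell (15.4%, beside 3.43% of all genes) and none rose (median -0.47). The lowest level was at H4 for 8 of the 13, beside 19.2% of all genes. *nr1h4*, the bile acid receptor, differed by -0.47 and *slc51a*, a bile acid exporter, by -0.09. *nr0b2a*, which represses *cyp7a1* in mammals and is named here after its values were seen, was at its highest in the series, at 13.78 against 13.29 in control and 9.54 to 13.43 over all other arrays. The list's median at the other sites lay between -0.20 and 0.27, and the H4 median against H3, H5 and X was -0.35.

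Among 18 measured enzymes that break down aromatic amino acids and histidine only *qdpra*, which restores the cofactor of phenylalanine hydroxylase, passed 2 fold (11.4 to 9.95). The median was -0.36, and 12 of the 18 had their lowest level of the 8 arrays at H4, beside 19.2% of all measured genes. *tdo2a*, the main tryptophan oxygenase of liver, had 14.22 and 13.6, where the other arrays reached 14.56, and *tat*, which starts tyrosine breakdown, 14.89 and 14.31. The exceptions include *ftcd* of histidine breakdown, which differed by 0.29.

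**Figure D4:**
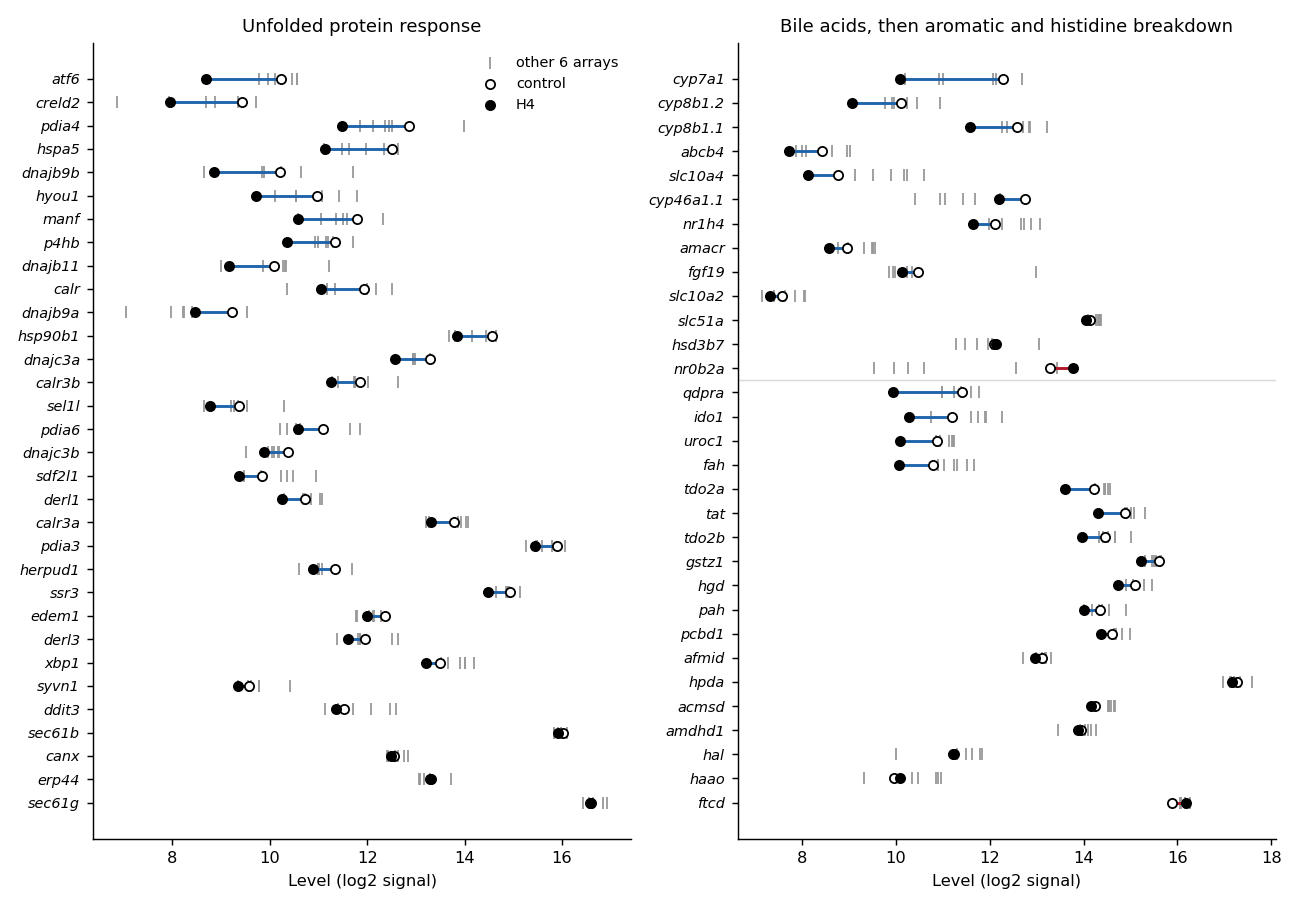
Level (log2 normalized signal) in control (open) and at H4 (filled) for 32 genes of the unfolded protein response, 13 of bile acid synthesis and transport and 18 of aromatic amino acid and histidine breakdown, with the other 6 arrays as grey ticks. Most filled points lie left of the open ones, with the widest gap at *cyp7a1* (-2.20).

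Amino acid handling showed further falls. In methionine and one-carbon metabolism 4 of 24 measured genes fell (16.7%, beside 3.43% of all genes) and 1 rose (4.17%, beside 4.68%). The median was -0.41, and 11 were at their lowest at H4, beside 19.2% of all genes. *mthfd2l*, a mitochondrial folate enzyme, went from 8.94 to 6.89, *cth* and *cthl*, which make cysteine, from 13.03 to 11.81 and from 10.29 to 8.88, and *gatm*, the first enzyme of creatine synthesis, from 10.86 to 9.69. The abundant *bhmt*, which regenerates methionine, had 15.74 and 15.22. Among amino acid transporters 5 of 20 fell (25.0%, beside 3.43% of all genes) and none rose. These were *slc7a3a*, *slc7a2*, *slc43a2b*, *slc38a4* and *slc38a2*, with differences from -1.77 to -1.17. The transporter list's median was -0.20 against control and -0.05 against H3, H5 and X over the same members. For *slc38a4*, with 5 probes, and *slc38a2* H4 was the lowest array, at 12.23 and 12.51. The 16 genes of ammonia, glutamine and urea metabolism held no change of 2 fold (median -0.06). Against H3, H5 and X their median was -0.36 over the same members.

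In sugar metabolism *pck1*, the entry to gluconeogenesis, went from 15.01 to 13.27 (3.35 fold lower), below the other 7 arrays (14.17 to 15.48). Its 2 probes gave -2.6 and -0.88. *g6pc1a.2*, the last step, had 13.98 and 13.11, and *gpib*, a glycolytic isomerase, went from 7.87 to 9.59. The abundant *fbp1b* differed by 0.09, and the 34 genes had a median of -0.03. Of 18 glucose and monocarboxylate carriers 4 fell (22.2%, beside 3.43% of all genes) and none rose, led by *slc16a9a* (13.17 to 11.08). Their median was -0.55 against control and -0.20 against H3, H5 and X, or -0.06 over the members measured against control. *slc2a2*, the main glucose carrier of liver, differed by 0.18.

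Each lipid list below held 1 or 2 falls and no rise among its measured genes, and its median lay below control. Cholesterol synthesis had 1 fall among 24 measured genes, *hsd17b7* (8.31 to 6.93), and a median of -0.35, with 18 of the 24 below control. *srebf2*, its master regulator, was at its lowest of the 8 arrays, with a difference of -0.33. In fatty acid synthesis *lpin1a*, which makes diacylglycerol, went from 11.87 to 9.49 (5.21 fold lower, 3 probes from -3.0 to -2.0) and *scd*, the desaturase, from 9.69 to 7.93, below the other arrays (9.41 to 10.43). *aclya*, which supplies the carbon for these fats, differed by 0.83. Among 41 genes of fatty acid oxidation and PPAR signalling *pparab* (8.26 to 7.07) and *pdk2b* (12.39 to 11.21) fell and none rose. That share of 4.88% was near the 3.43% of all genes. Their median was -0.17, with 33 of the 41 below control. H4 was the lowest of the 8 arrays for 14 of them, beside 19.2% of all genes. Each of the abundant *fabp3*, *etfb* and *acadm* differed by 0.03 or less in size. Against H3, H5 and X the medians of these lists were -0.55 for cholesterol synthesis, -0.51 for fatty acid synthesis and -0.39 for oxidation.

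Genes that handle foreign chemicals did not move as 1 block. Among targets of the aryl hydrocarbon receptor, which senses dioxins and many aromatic pollutants, *cyp1c2* went from 8.19 to 10.74 (5.86 fold) and *cyp1c1* from 7.81 to 9.69 (3.69 fold), and both were at their highest at H4. These 2 were 18.2% of the 11 measured genes, beside 4.68% of all genes, and the others stayed within 2 fold. *cyp1a*, the usual marker of this pathway, had 12.81 in control and 12.27 at H4, the lowest of the 8 arrays, and *ahrra*, the receptor's repressor, had 8.38 and 7.79. The pathway's members thus pointed both ways, and the median was 0.07.

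*cyp2aa4*, a cytochrome P450, was the largest fall of all genes, from 11.72 to 8.21 (11.4 fold, probes -3.74 and -3.27). *cyp2aa8* went from 11.93 to 9.93 and *cyp2p7* from 9.19 to 8.16. With *cyp2aa4*, 3 of 32 genes of families 2, 3 and 4 fell (9.38%, beside 3.43% of all genes). The other 29 stayed within 2 fold. The abundant *cyp3a65* was at 15.32 and 15.43. *cyp2aa4* varied on other arrays too, which ran from 6.26 to 11.78.

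Of 54 conjugating enzymes 6 fell and 1 rose, beside 3.43% lower and 4.68% higher of all genes. The list's median was -0.3, with 37 of the 54 below control. Against H3, H5 and X the median was -0.05 over the same members. The glucuronosyltransferase *ugt5a2* went from 11.18 to 7.97 (9.24 fold lower), where H3 and H5 had 11.56 and 11.87. *ugt5c1* (2.76 fold lower), *ugt2a5* (2.27 fold) and the sulfotransferase *sult1st3* (2.3 fold) were at their lowest of the 8 arrays. The 1 that rose was *gstp1.1*, a glutathione transferase, from 11.28 to 13.64 (5.15 fold), while all other arrays lay between 10.98 and 11.63. Its copy *gstp1.2* had 15.98 and 16.1.

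Among 33 antioxidant genes 2 rose (6.06%, beside 4.68% of all genes), both to the highest level of the series. These were *prdx1*, a peroxiredoxin (11.96 to 13.21, 3 probes from 1.05 to 1.36), and *gpx8* (7.41 to 8.68). *hmox1a*, heme oxygenase, had 12.7 and 13.4, and the median was 0.03. Of 18 measured metal and iron genes 1 fell (5.56%, beside 3.43% of all genes) and none rose, with a median of 0.04. The gene that fell was the metal-binding *mtbl*, from 11.91 to 10.67. *mt2* of the same list, named after its values were seen, differed by 0.29.

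Leukocyte genes were modestly higher, with 25 of 28 measured markers above control (median 0.43). By 2 fold, 4 of the 28 were higher (14.3%, beside 4.68% of all genes) and none lower. Of the 28, 14 had their highest level of the 8 arrays at H4, beside 15.6% of all genes. *spi1b*, the factor that makes myeloid cells, went from 11.62 to 12.7, *ctsk*, a lysosomal protease, from 11.09 to 12.65 and *tnfb* from 8.92 to 10.3. The 4 probes of *mpx*, the neutrophil peroxidase, ran from -0.54 to 3.1. The summed signal of the list was 110212 in control and 162305 at H4, where D had 159638 and H3 45914. Against H3, H5 and X the median was 1.09, and against control those 3 arrays stood at -1.37, -0.39 and -0.45. The 12 lymphocyte markers had a median of 0.09 against control and 1.13 against H3, H5 and X over the same members. For 6 of the 12 the highest level of the 8 arrays was at H4.

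Inflammation genes gave 5 rises (23.8%, beside 4.68% of all genes) and 1 fall (4.76%, beside 3.43%) among 21. As a list they were level, with a median of 0.01, 11 genes above control and 10 below. The highest level of the 8 arrays was at H4 for 2 of the 21, beside 15.6% of all genes. *saa*, the acute phase protein serum amyloid A, went from 9.3 to 11.73 (5.39 fold), *mmp13a* from 10.41 to 11.74, *ccl19a.1* from 12.31 to 13.57 and *mmp9* from 7.14 to 8.34, beside *irg1l*. Other arrays were higher than H4 for *saa* (up to 12.89), *mmp13a* (12.82) and *mmp9* (10.22). *stat1a*, which carries interferon signals, fell from 12.4 to 10.38, below the other arrays (11.31 to 12.4). *hamp* and *crp2*, made by hepatocytes, differed by 0.25 and -0.16. Of 18 interferon response genes 3 fell (16.7%, beside 3.43% of all genes) and 1 rose (5.56%, beside 4.68%). Their median was -0.42 against control and 0.02 against H3, H5 and X.

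In antigen presentation *mhc1uba*, a class I heavy chain, went from 13.15 to 11.87, and *tapbp.1* and *tapbp.2*, which load it, from 11.35 to 10.2 and from 10.69 to 9.53, the lowest of the 8 arrays. The class II chaperones *cd74a* and *cd74b* differed by 0.43 and 0.31. Of the 21 measured genes 3 fell (14.3%, beside 3.43% of all genes). Only *lgmn* rose, by 1.05 (4.76%, beside 4.68%). The list's median was 0.11, with 15 of the 21 above control. The highest level of the 8 arrays was at H4 for 13 of them, beside 15.6% of all genes. The level of *mhc1uba* ran from 7.3 to 13.19 over the other arrays. Complement and clotting genes stayed level against control, with medians of -0.06 and -0.05. Against H3, H5 and X, over the same members, their medians were -0.36 and -0.25. H4 was the lowest of the 8 arrays for 7 of 19 complement and 9 of 21 clotting genes, beside 19.2% of all genes.

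Matrix genes rose in part, with 8 higher (27.6%, beside 4.68% of all genes) and 2 lower (6.9%, beside 3.43%) of 29. Their median was 0.27. *col1a1b* and *col1a2*, chains of collagen I, went from 9.03 to 10.52 and from 10.22 to 11.59, and *timp2b* from 8.68 to 10.27. For each of these 3 genes another array was higher. Fibronectin genes *fn1a* and *fn1b* were at their lowest of the 8 arrays, with differences of -0.48 and -0.47. Of 30 tight junction genes 2 rose, *cldn3c* (10.5 to 12.14) and *cldn11a* (9.24 to 10.45), and none fell. That share of 6.67% was near the 4.68% of all genes, and the median was 0.14.

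Vitellogenins, the yolk proteins that estrogen switches on in fish liver, were lower at H4 than in control. *vtg5* had 9.73 in control and 8.36 at H4, with 6 probes from -1.58 to -1.04. *vtg6* had 8.86 and 7.67 (7 probes), *vtg7* 8.85 and 7.69 (4 probes) and *vtg4* 8.93 and 7.71. H4 was the lowest of the 8 arrays for all of these 4 genes. *vtg2*, named as the remaining vitellogenin that was measured here, differed by 0.69. Near-identical vitellogenin genes may share signal between probes, so the 4 are not separate measurements. The estrogen receptors *esr2b* and *esr2a* differed by -0.86 and -0.77. Of the list's 10 genes 4 fell and none rose, beside 3.43% lower and 4.68% higher of all genes. The 4 that fell were *vtg4*, *vtg5*, *vtg6* and *vtg7*, so the count does not stand for 4 separate falls. The list's median was -0.81 against control and -1.22 against H3, H5 and X.

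Of the remaining 10 largest falls, *pvalb9*, a parvalbumin (10.17 to 6.87), *crx* (9.98 to 6.76), *alpi.2*, an intestinal alkaline phosphatase (11.6 to 8.4), and *zgc:153896* (11.74 to 8.73) were at their highest on the control array. Against the median of the other 7 arrays *alpi.2* was higher at H4, by 1.99, and so was *zgc:153896*, by 0.33. H3 lay as low as H4 or lower at each of these genes. *ppp1r1b*, which inhibits protein phosphatase 1, was different. It was at 12.55 in control and 9.82 at H4 (6.64 fold lower), and the other 7 arrays lay between 12.17 and 14.23. *asb1* (10.38 to 7.69) and *nos2a*, inducible nitric oxide synthase (10.1 to 7.46), were also at their lowest at H4. *fkbp5*, a target of the cortisol receptor in mammals that was named after its values were seen, went from 12.31 to 9.99 (2 probes, -2.38 and -2.27), below the other arrays (10.83 to 13.14).

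Of 459 genes bright in control and not at H4, 140 were at least 2 fold lower (30.5%). The largest bounds were those of *zgc:136864* (at least 15.4 fold), *zgc:101048* (12.9), *cd164* (9.56), *slc2a15a* (8.03) and *gper1*, a membrane estrogen receptor (7.73). Next came *ceacam1* (7.54), *mespaa* (6.81), *pcdh1g11* (6.76), *plxdc2b* (6.52) and *ksr2* (6.13). *gper1* and *plxdc2b* were above background in control alone of the 8 arrays. For these genes the background mark cannot tell a fall at the sites from a high signal in the control pool.

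Lists of markers of neighbouring organs had medians of -0.22 for exocrine pancreas, -0.13 for intestine and 0.38 for islet in the pair. None of the 10 measured islet genes differed by 2 fold. Of these 10, 6 had their highest level of the 8 arrays at H4, beside 15.6% of all genes. Single members of other lists differed more. Of 24 intestine genes 4 fell and none rose (16.7%, beside 3.43% of all genes), with *apoa4a* at -1.77, *mep1a.2* at -1.42, *slc5a1* at -1.25 and *agr2* at -1.23. The 2 probes of *apoa4a* gave -3.5 and -0.04. Of 21 skeletal muscle genes 3 fell (14.3%, beside 3.43% of all genes), led by the parvalbumin *pvalb4* at -2.51, and 1 rose (4.76%, beside 4.68%). The digestive enzyme *prss1* had 17.45 and 17.21 and insulin, *ins*, 14.73 and 15.63. Other arrays held far less, with list medians against control down to -3.88 for pancreas and -4.77 for intestine. Against H3, H5 and X, H4 stood at 2.52 for pancreas, 1.73 for intestine and 2.25 for islet, and over the members measured against control at 2.43, 3.62 and 2.50. The skeletal muscle list changed sign, from -0.21 to 0.25, or 1.55 over the same members.

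The basic machinery of the cell stayed level against control. None of 80 cytosolic ribosomal protein genes, 79 respiratory chain genes and 22 liver transcription factors differed by 2 fold, with medians of -0.02, -0.07 and -0.12. Against H3, H5 and X, over the same members, the medians were -0.01, 0.06 and -0.39.

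**Figure D5:**
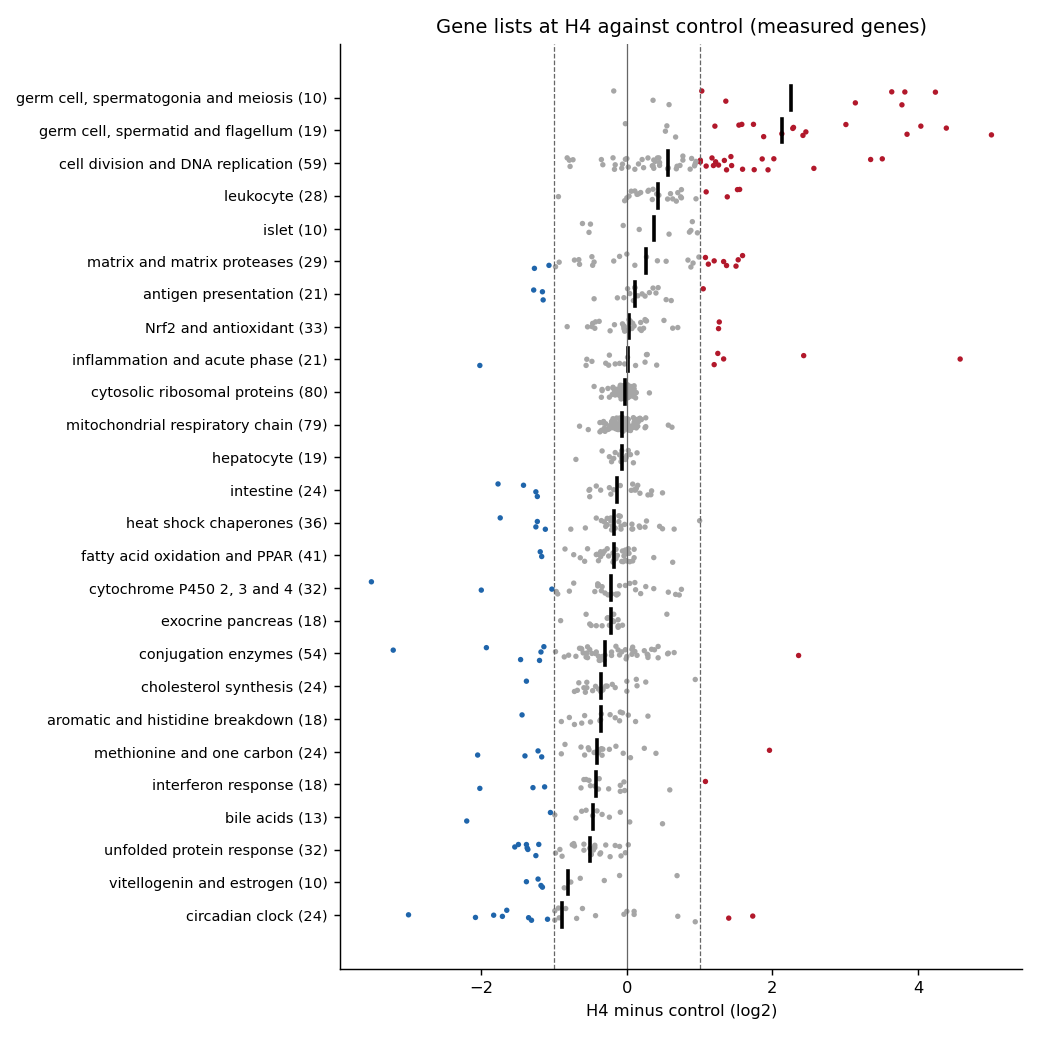
Difference between H4 and control (log2) for each measured gene of the lists shown, with the list median as a bar, dashed lines at 2 fold, and genes past them in red (higher) or blue (lower). The 2 germ cell lists reach medians of 2.25 and 2.13 and the clock list -0.89, while ribosomal, respiratory chain and hepatocyte lists gather at 0.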

How the data were processed

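Liver RNA of 8 pools was read on 1 array each, 1 per group. The deposited intensity values, per the file headers, are background-subtracted signals of Agilent Feature Extraction 11.5.1.1 (the labels name 10.7). The log2 table of the authors, used as an alternative, equals log2 signal less each array's 75th percentile for all probes within 0.01. The deposited marks of background and outliers came from the same software.

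Signals were put on a log2 scale and quantile normalized over the 8 arrays (Python 3.11.15, pandas 2.3.3, numpy 2.4.6), as the study's methods state. Control spots, outliers (220 probes on either array) and probes not well above background on both arrays were left out. Probes were averaged per gene, and 26094 probes were named through RefSeq accessions (13443 genes). For probes bright on 1 array a bound was computed against the lowest signal well above background. With 1 array per group no test was made. A difference of 2 fold was counted. No second arrays of the pools were analysed here.

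Members and the 49 gene lists were chosen with earlier results of these data known. Named genes were the 10 largest differences and bounds in each direction, the 6 largest and 3 most abundant members of each list, and genes the study names for H4. Of these, cxcl12b had no measured value, and some are not reported here. Other genes are marked where they appear. Alternatives changed the normalization, background (limma 3.58.1, R 4.3.3), filter, fold and reference. On simulated data the steps recovered the changes that had been put in. Those changes were larger than 2 fold and were put only into probes bright on all arrays. The check therefore does not cover changes near 2 fold or dim probes.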

Additional observations from a re-analysis of the deposited data

Results flagged for a closer look

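For 10 lists, at least 1 other site lay on the opposite side of control from H4, with both medians at least 0.19 in size, the typical spread between probes of a gene. None of these differences was tested, since each site is 1 array, and all values are medians of log2 differences from the same control array. The cell division list stood at 0.57 at H4, -0.58 at H1, -0.28 at H3 and -0.40 at X. The leukocyte list stood at 0.43 at H4, -0.40 at H1, -0.33 at H2, -1.37 at H3, -0.39 at H5 and -0.45 at X. The islet list stood at 0.38 at H4, -1.23 at H1, -1.86 at H3, -0.64 at H5, -3.31 at D and -3.73 at X. Matrix genes stood at 0.27 at H4 and -0.19 at X.

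The other lists were below control at H4 and above it elsewhere. Vitellogenin and estrogen genes stood at -0.81 at H4, 0.55 at H3 and 0.49 at X. Bile acid genes stood at -0.47 at H4, 0.23 at H3 and 0.27 at X. Aromatic and histidine breakdown stood at -0.36 at H4, 0.27 at H3 and 0.26 at X. Cholesterol synthesis stood at -0.35 at H4, 0.53 at H2 and 0.33 at H5, and fatty acid synthesis at -0.23 at H4 and 0.44 at H3. The integrated stress response stood at -0.29 at H4, 0.28 at H1 and 0.49 at H3.

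Outside the named genes, 430 probes with no gene symbol were at least 2 fold higher at H4, of 8253 such probes, and 527 were lower. Over all 25431 measured probes the counts were 1217 higher (4.79%) and 1216 lower (4.78%). Another 805 probes were bright at H4 and not in control and at least 2 fold higher by their bound, of 2250 bright at H4 only. In the opposite direction 499 of 1838 probes bright in control only were at least 2 fold lower.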

How the results depend on the processing

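No paired analysis was possible because each group holds 1 array. The probe counts, 1217 higher and 1216 lower, became 718 and 603 after normexp background correction, 2763 and 2326 with probes bright on at least 1 array, 3578 and 3242 with no filter, 2022 and 1715 with a floor, and 499 and 312 at 3 fold. Counted as genes they were 459 and 336. Against the other 3 arrays of the slide, 2166 were higher and 1546 lower, and against all other 7 arrays 1995 and 1023. Of the probes counted against the other 7 arrays 66.1% were higher, and against control about as many were higher as lower. Scaling to the 75th percentile moved the median of all probes from -0.03 to -0.15.

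Both germ cell lists stayed above 1. The meiosis median (2.25) was 1.5 with normexp, 4.01 with probes bright on at least 1 array, 1.59 with a floor and 1.84 against the slide. The flagellum median (2.13) was 1.62 with normexp, 2.44 with probes bright on at least 1 array, 2.41 with no filter, 1.94 with a floor and 1.89 against the slide. Cell division (0.57) was 1.00 against the slide and 0.76 against the other 7 arrays, and leukocyte (0.43) 1.09 and 0.85. The clock (-0.89) was -0.66 with normexp, -0.69 with no filter, -0.46 with a floor, -0.63 against the slide and -0.70 against the other 7 arrays. The unfolded protein response (-0.50) was -0.71 with the 75th percentile, in the authors' table and against the slide. Bile acids (-0.47) were -0.70 against the other 7 arrays and cholesterol synthesis (-0.35) was -0.55 against the slide. These 8 lists kept their sign throughout.

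The sign turned for the 7 lists and 2 genes given next, and also for lists that lay nearer 0 against control. Of the latter, intestine (-0.13) was 3.62 against the slide over the members measured against control. Oocyte (0.46, 2 genes) was -0.15 with no filter, -0.06 with a floor, -0.49 against the slide and -1.12 against the other 7 arrays. Exocrine pancreas (-0.22) was 2.52 and 1.65 against those references, skeletal muscle (-0.21) 0.25 and 0.39, and zgc:153896 (-3.01) 0.33 and 0.33. These references leave out members that are dim on most of the reference arrays and take in others, and over the members measured against control the slide value was 1.55 for skeletal muscle and 0.20 for oocyte. Against the other 7 arrays alpi.2 (-3.20) was 1.99 and amino acid transporters (-0.20) 0.04, and against the slide the interferon response (-0.42) was 0.02. With a floor, islet (0.38) and matrix (0.27) were each -0.06. The cause of these shifts was not tested. Dim signals and 1 array per group set the limit of every value here.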
